A study of Mus musculus with 12 samples.

Results

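The genes described here encode 3 ephrins (Efna1, Efnb1 and Efnb2) and 5 Eph receptors (Epha2, Epha4, Ephb2, Ephb3 and Ephb4). Members were the probes that the annotation of the array matches to 1 of these 8 symbols alone. This gave 8 probes for 7 genes, of 33012 probes on the array and 13840 genes named by its annotation, with 2 probes for Epha2 and 1 for each other gene. No probe was matched to Ephb2, which was not analysed further. The signals came from MMT cells, an established line from a mouse mammary tumour, measured on 12 single-colour chemiluminescence arrays. Of these, 2 held untransfected cells, 3 cells given a control siRNA (siCtrl), 3 cells given an siRNA directed at Erm (siErm) and 4 cells given an siRNA directed at Pea3 (siPea3). Erm and Pea3 are the transcription factors encoded by Etv5 and Etv4. The 3 transfected groups share the transfection itself, which the untransfected cells lack, and the labels name no sequence, amount or time for any siRNA. All groups come from 1 cell line, and per the labels the arrays of a group are biological replicates.

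Ephrins are ligands held in the membrane of one cell, and Eph receptors are tyrosine kinases in the membrane of its neighbour, so that signalling needs contact between cells. Ephrin-A ligands are tethered by a lipid anchor and mostly bind EphA receptors. Ephrin-B ligands span the membrane, mostly bind EphB receptors and also signal back into the cell that carries them. In the mammary gland and other epithelia the family is known for roles in tissue boundaries, adhesion and the growth and spread of tumours. The study asked which genes respond when the ETS factors Pea3 or Erm are repressed.

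The windows around the annotated starts of the members were read for the hexamer AGGAAG, through which PEA3 was first described, and for CCGGAA, another form of the ETS core motif. Each window runs from 250 bases before to 50 bases after a start listed by RefSeq, build GRCm38.p6, and both strands were searched. All 8 member genes had a window, and Efna1 had 2. AGGAAG, or its reverse complement CTTCCT, was found in 2 of these 9 windows, against 35.4% of all 32851 windows in the same table. CCGGAA was found in 1 of the 9, that of Ephb2, against 14.9%. The member windows with AGGAAG, those of Efnb1 and of the second start of Efna1, are shown because Efnb1 is the member that passed a test below and Efna1 is the ligand that pairs with Epha2. The window of Efna4, another ephrin that passed one, is shown beside them. They are printed 5′ to 3′ on the strand of the gene, and capitals mark the motif or its reverse complement.
Efnb1, chrX:99135811-99136110, plus strand: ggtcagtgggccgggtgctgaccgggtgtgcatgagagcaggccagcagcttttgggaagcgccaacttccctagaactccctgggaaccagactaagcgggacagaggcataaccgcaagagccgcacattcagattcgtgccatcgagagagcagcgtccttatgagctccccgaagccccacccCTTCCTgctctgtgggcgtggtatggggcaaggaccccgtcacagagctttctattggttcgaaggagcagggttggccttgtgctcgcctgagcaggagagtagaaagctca
Efna1 second start, chr3:89279596-89279895, minus strand: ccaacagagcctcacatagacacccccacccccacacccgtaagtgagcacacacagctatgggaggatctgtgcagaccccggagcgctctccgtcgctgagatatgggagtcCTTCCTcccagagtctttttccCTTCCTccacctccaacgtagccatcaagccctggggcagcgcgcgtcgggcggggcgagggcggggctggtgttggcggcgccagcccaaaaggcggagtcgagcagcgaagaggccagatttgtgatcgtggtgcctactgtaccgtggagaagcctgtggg
Efna4, chr3:89337979-89338278, minus strand: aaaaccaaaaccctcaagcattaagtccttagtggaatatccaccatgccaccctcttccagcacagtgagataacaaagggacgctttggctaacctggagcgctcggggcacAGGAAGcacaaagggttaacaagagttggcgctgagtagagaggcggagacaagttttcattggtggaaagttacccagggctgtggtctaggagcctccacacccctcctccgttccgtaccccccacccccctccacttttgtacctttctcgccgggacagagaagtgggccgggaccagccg
The match in the Efnb1 window begins 63 bases before the start. Those of Efna1 begin 136 and 114 bases before it, and that of Efna4 begins 136 bases before it. The matches are positions of letters, and no binding was measured.

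Detection on an array required a signal of at least 3 times the noise. Between 11286 probes (34.19%, siPea3 array 2) and 13836 probes (41.91%, untransfected array 1) were detected per array, and siPea3 array 2 also had the lowest upper quartile of signal (7.47, against 10.21 to 14.36 on the others). The median log2 change of all 16724 tested probes was -0.24 for siPea3 minus siCtrl and -0.28 for siPea3 minus untransfected cells, and -0.05 and -0.03 after quantile normalization. Decreases of Efnb1, Efna1, Ephb3, Ephb4 and Efna4 between siPea3 and siCtrl cells are therefore also given relative to that median. The signal of Etv4, the target of the Pea3 siRNA, was 16.43 to 21.09 on the siPea3 arrays and 31.47 to 43.15 on the siCtrl arrays. Etv5 was detected on 2 of 3 siCtrl arrays, at up to 2.77, on 0 of 3 siErm arrays, on 0 of 4 siPea3 arrays and on 1 of 2 untransfected arrays (1.05 and 23.69), so its probe is a weak check of the siErm label. Krt8 and Krt18, keratins of luminal epithelium, the basal keratins Krt14 and Krt17, and Vim, of mesenchyme, were detected on all 12 arrays. The epithelial adhesion genes Epcam and Cdh1 and the basal keratin Krt5 were detected on none.

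Of the 8 member probes, 6 were detected on at least 2 arrays and were tested. They are those of Efna1, Efnb1, Ephb3 and Ephb4 and both probes of Epha2. The probes of Efnb2 and Epha4 were not detected on any of the 12 arrays. Probes differ in how brightly they report a transcript, so levels are compared between arrays and groups for 1 probe at a time. The plot of member signals by array shows all 8 probes.

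**Figure D1:**
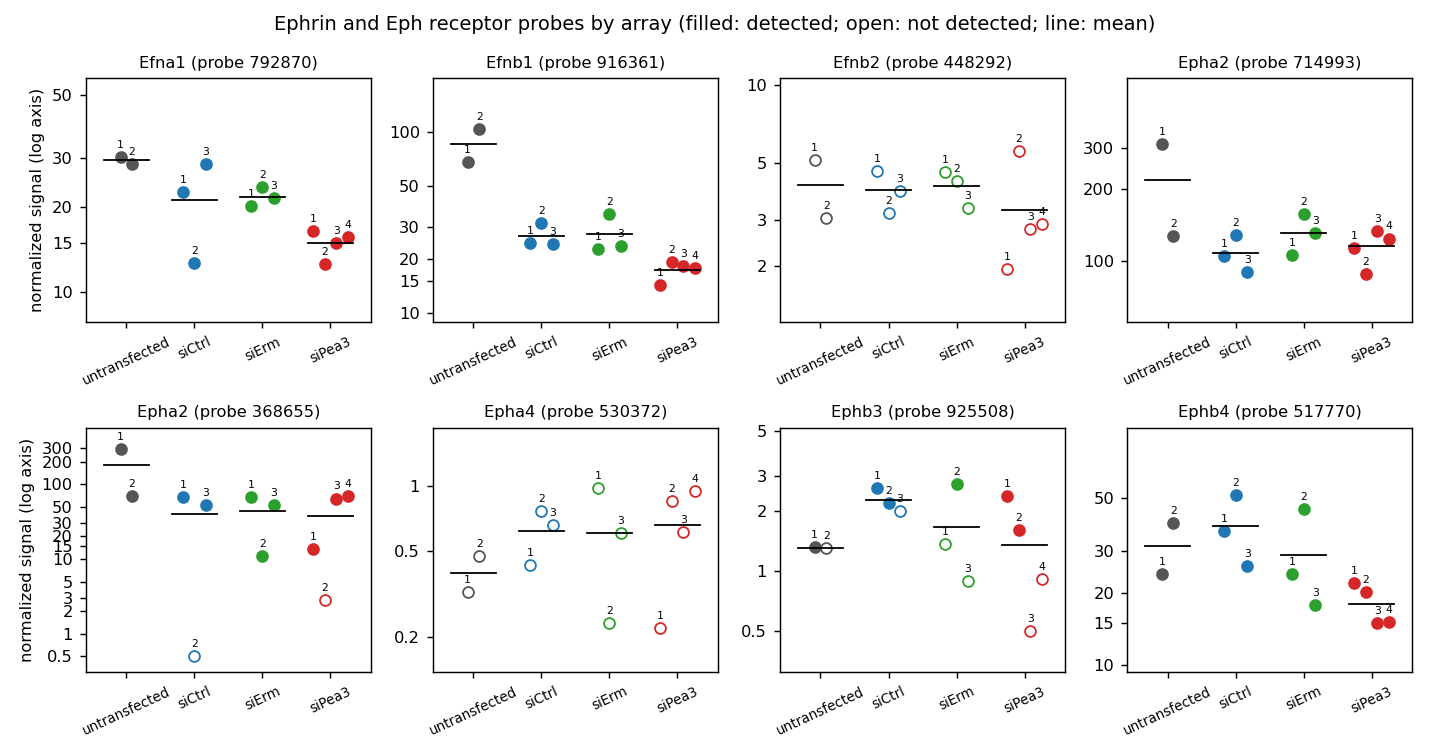
Deposited normalized signal (log axis) of each member probe on the 12 arrays, by group. Filled points are detected measurements, open points are undetected ones and bars are group means. The Efnb1 signals of both untransfected arrays (68.45 and 103.5) lie above those of all transfected arrays (14.28 to 35.32).

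Efnb1 encodes ephrin-B1, a transmembrane ligand of EphB receptors, and its signal was lower in every transfected group than in untransfected cells. The untransfected arrays gave 68.45 and 103.5. The siCtrl arrays gave 24.24, 31.51 and 23.93, and the siErm arrays 22.67, 35.32 and 23.45. The siPea3 arrays gave 14.28, 19.04, 18.11 and 17.76. Both untransfected arrays were above all the others, the siCtrl and siErm arrays overlapped, and the 4 siPea3 arrays were the lowest of the 12. Of all tested probes, 14.2%, 15.8% and 26.3% were likewise lower without overlap in siCtrl, siErm and siPea3 minus untransfected cells. Group means were 86.0 ± 24.8 (SD, n = 2) in untransfected, 26.6 ± 4.29 (n = 3) in siCtrl, 27.2 ± 7.09 (n = 3) in siErm and 17.3 ± 2.08 (n = 4) in siPea3 cells.

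Against untransfected cells, Efnb1 fell by 1.68 on the log2 scale in siCtrl cells (SE 0.31, adjusted p = 0.0299 by limma, adjusted over all tested probes). It fell by 1.66 in siErm cells (SE 0.31, adjusted p = 0.0348) and by 2.29 in siPea3 cells (SE 0.29, adjusted p = 0.00216), which are folds of 3.195, 3.167 and 4.895. The 95% interval of the siPea3 change ran from -2.93 to -1.65. Relative to the median of all probes the changes were -1.62, -1.57 and -2.01 in siCtrl, siErm and siPea3 cells. After quantile normalization they were -1.63, -1.59 and -1.94. These 3 comparisons share the same 2 untransfected arrays, and their values are set side by side for that reason only. Efnb1 was the 1 of 6 member probes called in each of them (adjusted p under 0.05). Of all tested probes, 1.02% were called in siCtrl minus untransfected cells (0.12% lower), 0.783% in siErm minus untransfected cells (0.0837% lower) and 6.37% in siPea3 minus untransfected cells (3.81% lower).

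The siPea3 change of Efnb1 against untransfected cells was called under all 11 alternative settings, with adjusted p from 0.0037 to 0.0372. The siCtrl call was kept under 2 of 10 and the siErm call under 3 of 10, with adjusted p from 0.0324 to 0.285 and from 0.0395 to 0.281. The siCtrl call was lost without any 1 of the 5 arrays compared, and with the replicate number as a block (adjusted p = 0.0522 for siCtrl and 0.0616 for siErm). Of the settings that leave out 1 array, the siErm call was kept only without siErm array 2, and it was also kept under both other scalings. Log2 changes stayed between -1.97 and -1.37 for both groups.

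**Figure D2:**
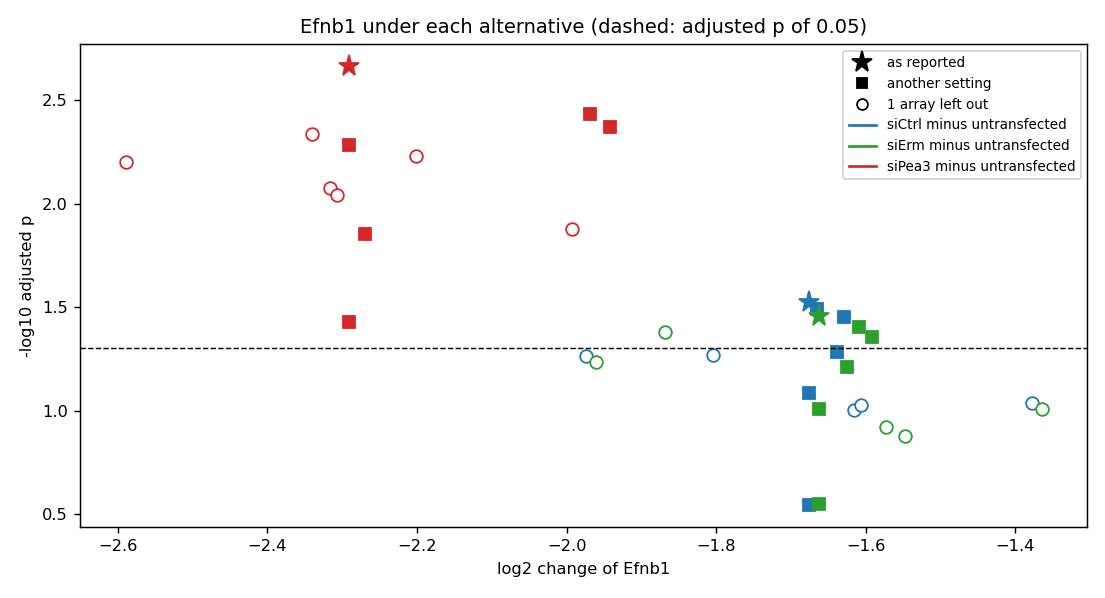
Log2 change of Efnb1 against untransfected cells (x axis) and -log10 of its adjusted p (y axis) as reported and under each alternative, coloured by transfected group. The 12 siPea3 points lie above the dashed line that marks an adjusted p of 0.05, while most of the siCtrl and siErm points lie below it.

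Markers of cell types moved between the same groups. The summed signal of 10 luminal markers, of which 5 (Krt8, Krt18, Krt19, Cldn3 and Gata3) were detected on all arrays and 5 (Epcam, Cdh1, Cldn7, Esr1 and Csn2) on none, was 1777 to 1925 in untransfected, 855.6 to 1321 in siCtrl, 761.3 to 1034 in siErm and 452.2 to 797.6 in siPea3 cells. Krt8, with group means of 1320, 773.6, 678.2 and 410.4, and Krt18, with 406.9, 123.8, 110.2 and 73.33, made up most of it. Krt19 (16.74, 12.98, 17.95 and 9.905), Cldn3 (9.94, 13.48, 14.96 and 13.82) and Gata3 (89.32, 104.4, 97.84 and 84.94) did not follow that order. The summed signal of 9 mesenchymal markers, with Vim, Fn1 and Zeb1 detected on all arrays, was 8219 to 8489, 4656 to 6893, 5253 to 5635 and 3259 to 4807 in the same groups, and Vim made up most of it. Of 7 basal markers, Krt14 and Krt17 were detected on all arrays and Krt5, Acta2 and Myh11 on none. The sums of the 7 were 21.22 to 30.01, 24.46 to 36.64, 27.22 to 56.82 and 36.15 to 65.26. None of 8 endothelial markers was detected on all arrays, with sums of 5.39 to 13.82. Of 5 immune markers 3, among them Ptprc and Cd3e, were detected on none, with sums of 6.97 to 12.27. Lyz2, another immune marker, was detected on all 12 arrays, with group means of 5.645, 6.35, 4.73 and 6.275. All these sums are of deposited signals, not corrected for the median change of all probes (-0.28 for siPea3 minus untransfected cells). The part of these markers in the Efnb1 result was not tested, and in RNA from whole cultures fewer cells of a type and less RNA per cell cannot be told apart.

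Between the transfected groups Efnb1 was not called. In siPea3 minus siCtrl cells its log2 change was -0.62 (SE 0.26, 95% interval -1.18 to -0.05, adjusted p = 0.34 by limma), or -0.38 relative to the median of all probes. All 4 siPea3 arrays lay below all 3 siCtrl arrays, as was the case for 12.4% of the tested probes. The same-numbered differences were -0.763, -0.727 and -0.402, and 29.3% of probes were likewise lower in all 3 pairs. After quantile normalization the change was -0.31. Against siErm cells the siPea3 change was -0.63 (SE 0.26, adjusted p = 0.457), again with no overlap, which held for 10.9% of probes, and -0.35 after quantile normalization. In siErm minus siCtrl cells the change was 0.013 (SE 0.27), and its 95% interval of -0.59 to 0.62 leaves room for a change of either sign.

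Efna1 encodes ephrin-A1, a lipid-anchored ligand that binds EphA2, and its lowest mean was also that of siPea3 cells. Its signals were 30.1 and 28.49 in untransfected cells and 22.62, 12.71 and 28.49 in siCtrl cells. They were 20.28, 23.51 and 21.55 in siErm cells and 16.47, 12.55, 14.98 and 15.68 in siPea3 cells. The siPea3 arrays lay below all untransfected and siErm arrays, as did those of 26.3% and 10.9% of all probes in these 2 comparisons. They overlapped the siCtrl arrays through siCtrl array 2, which was near the siPea3 level, while siCtrl array 3 equalled an untransfected array. The means were 29.3 ± 1.14 (SD, n = 2), 21.3 ± 7.98 (n = 3), 21.8 ± 1.63 (n = 3) and 14.9 ± 1.69 (n = 4) in the order untransfected, siCtrl, siErm and siPea3.

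No comparison of Efna1 passed the test. Against untransfected cells the log2 change was -0.98 in siPea3 cells (SE 0.31, adjusted p = 0.0851 by limma), -0.54 in siCtrl cells (SE 0.33, adjusted p = 0.562) and -0.43 in siErm cells (SE 0.33, adjusted p = 0.706). The siPea3 change fell to -0.59 after quantile normalization. It was -0.44 against siCtrl cells (SE 0.28, adjusted p = 0.486), or -0.20 relative to the median of all probes, and -0.55 against siErm cells (SE 0.28, adjusted p = 0.519), which became -0.19 and -0.26 after quantile normalization. The same-numbered differences from siCtrl cells were -0.458, -0.0183 and -0.927.

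Efnb2 encodes ephrin-B2, another transmembrane ligand, best known from arteries. Its probe gave 5.13 and 3.05 in untransfected cells, 4.64, 3.2 and 3.88 in siCtrl cells, 4.6, 4.24 and 3.35 in siErm cells and 1.94, 5.56, 2.77 and 2.9 in siPea3 cells, all undetected. These values overlap between all groups and were not tested.

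Epha2 encodes a receptor of ephrin-A ligands, and its pair of probes gave different pictures. Probe 714993 was detected on all 12 arrays, at 310.55 and 126.68 in untransfected cells and 104.55, 127.78 and 89.49 in siCtrl cells. In siErm cells it gave 105.38, 156.79 and 131.01, and in siPea3 cells 113.35, 87.79, 133.61 and 123.93. Only untransfected array 1 stood apart, and untransfected array 2 lay within the range of the transfected arrays. Accordingly the untransfected mean of 219 ± 130 (SD, n = 2) had a wide error beside means of 107 ± 19.3 (n = 3) in siCtrl, 131 ± 25.7 (n = 3) in siErm and 115 ± 19.7 (n = 4) in siPea3 cells.

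Probe 714993 was not called in any comparison. Its log2 change against untransfected cells was -0.90 in siCtrl (SE 0.38, adjusted p = 0.401 by limma), -0.62 in siErm (SE 0.38, adjusted p = 0.64) and -0.81 in siPea3 cells (SE 0.36, adjusted p = 0.195). Untransfected array 1 decided the size of these changes. Without it they were -0.26, 0.03 and -0.16, and without untransfected array 2 the siPea3 change was -1.46 and called (adjusted p = 0.0415). Between transfected groups the changes were 0.29 for siErm minus siCtrl, 0.094 for siPea3 minus siCtrl and -0.19 for siPea3 minus siErm, with 95% intervals of -0.47 to 1.04, -0.61 to 0.80 and -0.90 to 0.52.

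The other probe of Epha2, 368655, was far more variable. It gave 293.85 and 69.07 in untransfected cells, 66.57, 0.5 and 52.58 in siCtrl cells and 66.48, 11.06 and 52.25 in siErm cells. In siPea3 cells it gave 13.55, 2.87, 64.18 and 69.04. The values on siCtrl array 2 (0.5) and siPea3 array 2 (2.87) were undetected, although probe 714993 gave 127.78 and 87.79 on those arrays. The highest transfected value, 69.04, lay just under the lower untransfected one, so the groups did not overlap by this narrow margin. The same held for 14.2%, 15.8% and 26.3% of all probes in siCtrl, siErm and siPea3 minus untransfected cells. Log2 changes against untransfected cells were -3.56 (SE 1.99), -2.08 (SE 1.99) and -2.81 (SE 1.89) for siCtrl, siErm and siPea3, and limma gave adjusted p of 0.524, 0.771 and 0.379. The siCtrl change was -1.27 without siCtrl array 2, whose value was undetected. With 1 array left out it ran from -4.80 to -1.27 for siCtrl, from -3.12 to -1.03 for siErm, lowest in size without untransfected array 1 or siErm array 2, and from -3.85 to -1.76 for siPea3, lowest without untransfected array 1 or siPea3 array 2. The probes agreed on the order of both untransfected arrays and on the lowest siPea3 array, and disagreed on the lowest siCtrl array and the lowest siErm array.

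**Figure D3:**
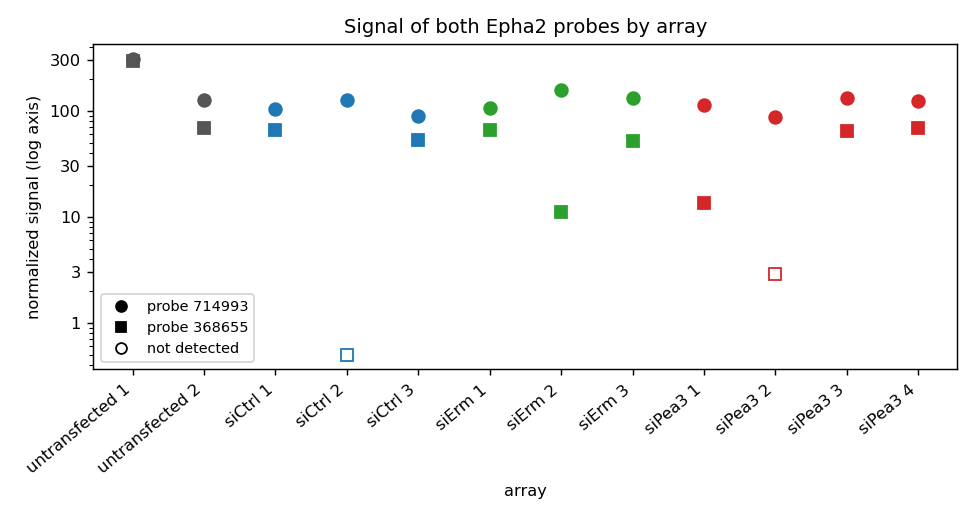
Normalized signal (log axis) of both Epha2 probes on each of the 12 arrays, with undetected values open. Probe 714993 ranges from 87.79 to 310.55, while probe 368655 falls to 0.5 on siCtrl array 2 and to 2.87 on siPea3 array 2.

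Ephb4 encodes a receptor whose main ligand is ephrin-B2, and among the member probes it had the largest log2 change of those detected on all arrays between siPea3 and siCtrl cells. Its signals were 24.2 and 39.23 in untransfected cells and 36.64, 51.78 and 25.98 in siCtrl cells. They were 24.08, 45.24 and 17.9 in siErm cells and 22.09, 20.28, 15.02 and 15.11 in siPea3 cells. The siPea3 arrays lay below all untransfected and siCtrl arrays and overlapped the siErm arrays. Of all probes, 26.3% were likewise lower without overlap against untransfected and 12.4% against siCtrl cells. The means were 31.7 ± 10.6 (SD, n = 2) in untransfected, 38.1 ± 12.96 (n = 3) in siCtrl, 29.1 ± 14.3 (n = 3) in siErm and 18.1 ± 3.61 (n = 4) in siPea3 cells.

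The siPea3 minus siCtrl change of Ephb4 was -1.04 (SE 0.37, 95% interval -1.84 to -0.23), a fold of 2.053, and did not pass the test (adjusted p = 0.293 by limma). It was -0.80 relative to the median of all probes and -0.73 after quantile normalization, with same-numbered differences of -0.73, -1.35 and -0.791. Against untransfected cells the siPea3 change was -0.79 (SE 0.41, adjusted p = 0.262) and -0.40 after quantile normalization. The siErm minus siCtrl change was -0.45 (SE 0.39, adjusted p = 1), with same-numbered differences of -0.606, -0.195 and -0.537, and 20.5% of probes were lower in all 3 such pairs. In siCtrl and siErm minus untransfected cells it was 0.25 (SE 0.44) and -0.195 (SE 0.44), and each changed sign when single arrays were left out.

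Ephb3, a receptor of ephrin-B ligands known from epithelia of the gut, was near the limit of detection. Its signals were 1.31 and 1.3 in untransfected, 2.61, 2.18 and 1.99 in siCtrl, 1.37, 2.73 and 0.89 in siErm and 2.36, 1.61, 0.5 and 0.91 in siPea3 cells. It was detected on 1 of 2, 2 of 3, 1 of 3 and 2 of 4 of these arrays, so its values are partly background. The siCtrl arrays lay above the untransfected ones (log2 change 0.78, SE 0.61, adjusted p = 0.641 by limma), as did those of 12.6% of probes. The siPea3 minus siCtrl change was -0.97 (SE 0.51, adjusted p = 0.419), or -0.73 relative to the median. Epha4, a receptor that binds both classes of ephrin, gave 0.22 to 0.97 over the 12 arrays, undetected on each, and was not tested.

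Taking the 6 tested member probes as a list, the median log2 change was -0.72 in siCtrl, -0.52 in siErm and -0.89 in siPea3 minus untransfected cells. The medians of all tested probes were -0.06, -0.09 and -0.28. Changes were below 0 for 4, 5 and 6 of the 6 probes, against 53.7%, 57% and 64.4% of all probes. The arrays did not overlap, with the transfected ones lower, for 2, 3 and 4 of the 6, against 14.2%, 15.8% and 26.3% of all probes. Both probes of Epha2 are in these counts although they report 1 gene.

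Between the transfected groups, 0 member probes were called by limma. The siPea3 minus siCtrl comparison called 0.0359% of all probes (6), siPea3 minus siErm 0.00598% (1) and siErm minus siCtrl 0% (0, with 339 probes at an unadjusted p under 0.05). At an unadjusted p under 0.05 there were 2 member probes (Efnb1 and Ephb4), 1 (Efnb1) and 0 member probes, against 13.4%, 10.3% and 2.03% of all probes. The member medians were -0.53, -0.57 and 0.06, beside -0.24, -0.20 and -0.05 for all probes. The siPea3 arrays lay below the others without overlap for 2 of 6 probes against siCtrl (Efnb1 and Ephb4), as for 12.4% of all probes, and for 2 of 6 against siErm (Efna1 and Efnb1), as for 10.9%. The plot of log2 changes sets the tested probes side by side.

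**Figure D4:**
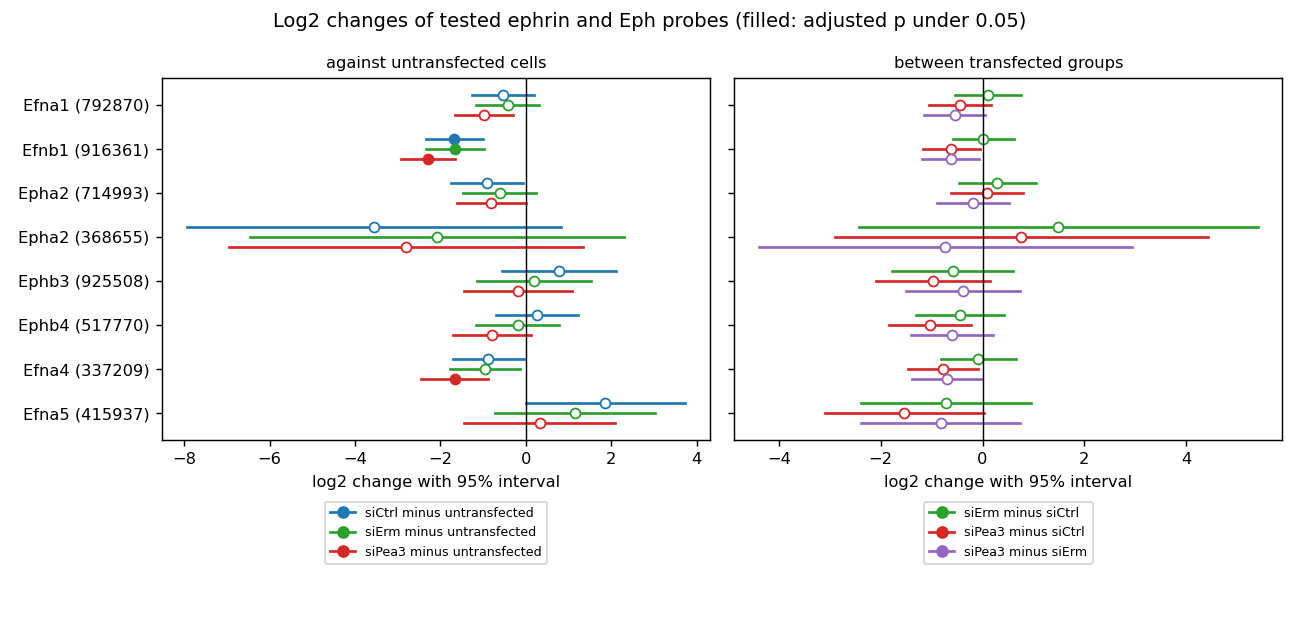
Log2 changes (points) with 95% intervals (lines) of the tested member probes and of the other ephrins Efna4 and Efna5, against untransfected cells on the left and between transfected groups on the right. Filled points, which have an adjusted p under 0.05, are Efnb1 against untransfected cells in all 3 groups and Efna4 in siPea3 cells (-1.66).

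The other 14 genes of the family gave 6 tested probes, of which 1, for Efna4, was called in 1 comparison. Efna4 encodes ephrin-A4, a lipid-anchored ligand. Its signals were 19.58 and 19.69 in untransfected cells, 12.7, 8.94 and 10.73 in siCtrl cells and 10.48, 14.58 and 6.72 in siErm cells. The siPea3 arrays gave 7.43, 4.27, 5.83 and 8.03. As with Efnb1, both untransfected arrays were above all the others. Of all probes, 14.2%, 15.8% and 26.3% were likewise lower without overlap in siCtrl, siErm and siPea3 minus untransfected cells. The siPea3 arrays lay below all siCtrl arrays, as did those of 12.4% of all probes, but overlapped siErm array 3. Efna4 fell by 1.66 on the log2 scale in siPea3 minus untransfected cells (SE 0.36, adjusted p = 0.0233 by limma). This change was -1.38 relative to the median of all probes and -1.32 after quantile normalization. The call was kept under 5 of 11 alternatives (adjusted p from 0.014 to 0.129). It was lost without either untransfected array (0.129 without array 1 and 0.065 without array 2), without siPea3 array 3 (0.055), with the replicate number as a block (0.0591), with no filter on detection (0.0555) and with only the groups compared (0.0784).

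Efna4 was not called elsewhere. Its log2 change against untransfected cells was -0.88 in siCtrl (SE 0.38, adjusted p = 0.404 by limma) and -0.96 in siErm cells (SE 0.38, adjusted p = 0.398), and its siPea3 minus siCtrl change was -0.78 (SE 0.31, adjusted p = 0.327), or -0.54 relative to the median. Efna5, which encodes the ligand ephrin-A5, gave 2.38 and 0.6 in untransfected, 3.91, 7.23 and 2.92 in siCtrl, 2.65, 5.57 and 1.27 in siErm and 3.75, 1.41, 1.71 and 0.56 in siPea3 cells. The values of 0.6, 1.27, 1.41 and 0.56 were undetected. The siCtrl arrays lay above both untransfected arrays (log2 change 1.865, SE 0.85, adjusted p = 0.439 by limma), as did those of 12.6% of probes. The siPea3 change of Efna5 was 0.33 against untransfected cells (SE 0.81, adjusted p = 0.825), -1.54 against siCtrl cells (SE 0.71, adjusted p = 0.377) and -0.82 against siErm cells (SE 0.71, adjusted p = 0.681).

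Over the whole family, 5 ephrin probes and 7 receptor probes were tested. In siPea3 minus untransfected cells 2 of the 5 ephrins (Efnb1 and Efna4) and 0 of the 7 receptor probes were called lower, against 3.81% of all probes. The median log2 change was -0.98 for the ephrins and -0.79 for the receptors, beside -0.28 for all probes. In siPea3 minus siCtrl cells the medians were -0.62 and -0.71, beside -0.24, with 0 called in either class. The median of -0.71 is the change of Ephb1, which was detected on 0 of 4 siPea3 and 1 of 3 siCtrl arrays. Ephb1, Ephb3, Ephb6 and Epha10 were near the limit of detection, as was the ephrin Efnb3. Both Epha2 probes are among the 7. Whether the classes differ was not tested.

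Proteins that act downstream of Eph receptors or on ephrins were followed through a list of 47 genes, of which 31 had a probe and 24 a tested one. In siPea3 minus untransfected cells 3 of the 24 were called, all lower, against 6.37% of all probes called and 3.81% called lower. Of the 24 estimates 23 were below 0, against 64.4% of all probes, with a median of -0.83 beside -0.28 for all probes. Relative to the median of all probes, Pard6a, Rock1, Sipa1l1, Anks1 and Psen2 were above 0. Rgs3 and Itsn2, which are among the 23, were undetected on every siPea3 and untransfected array. Ngef, the ephexin that binds EphA receptors, fell by 1.30 on the log2 scale (SE 0.27, adjusted p = 0.021 by limma) from a mean signal of 22.46 to 9.01. Rasa1, a Ras GTPase-activating protein recruited by EphB receptors, fell by 1.76 (SE 0.45, adjusted p = 0.0432) from 426.3 to 103.8. Chn1, the chimaerin that acts on Rac downstream of EphA4, fell by 1.74 (SE 0.46, adjusted p = 0.0489) from 8.235 to 2.64. Chn1 was detected on 3 of 4 siPea3 and 2 of 3 siCtrl arrays, so some of its values were undetected. Uncalled decreases against untransfected cells were also seen in siCtrl and siErm cells, at -0.91 and -0.92 for Rasa1 and -1.22 and -1.19 for Chn1. For Ngef they were -0.37 and -0.14. In siPea3 minus siCtrl cells Rasa1 was at -0.85 (adjusted p = 0.377 by limma) and Chn1 at -0.52 (adjusted p = 0.577).

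These 3 calls depended on the setting. Ngef kept its call under 3 of 11 alternatives (adjusted p from 0.0221 to 0.129 by limma), Rasa1 under 4 of 11 (0.00451 to 0.314) and Chn1 under 0 of 11 (0.0508 to 0.279). Relative to the median of all probes the changes of Ngef, Rasa1 and Chn1 were -1.02, -1.48 and -1.46. After quantile normalization they were -0.91 (adjusted p = 0.129), -1.45 (0.0403) and -1.59 (0.0926). Scaling over the probes detected on all arrays likewise kept only the Rasa1 call. Without untransfected array 1 the Rasa1 change was -0.79. Psen2, a subunit of the protease complex that cuts ephrin-B and Eph proteins, was the 1 of 24 with a higher estimate (0.84, SE 0.38, adjusted p = 0.197). The counts take 1 probe per gene, and of 4 further tested probes of Rgs3, Acp1 and Ptpn11, 2 were below 0 and 2 above it in this comparison, at 0.97 for Rgs3 and 0.23 for Acp1, with 0 called.

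In the other comparisons 0 of the 24 genes were called by limma, with 4, 4, 0, 4 and 3 at an unadjusted p under 0.05 in siCtrl minus untransfected, siErm minus untransfected, siErm minus siCtrl, siPea3 minus siCtrl and siPea3 minus siErm cells. In the same order, 11.4%, 10.2%, 2.03%, 13.4% and 10.3% of all probes reached that p. Estimates were below 0 for 23 of 24 genes in siPea3 minus siCtrl cells, against 69.4% of all probes, with a median of -0.53 beside -0.24 for all probes. In siPea3 minus siErm cells they were below 0 for 21 of 24, against 67.7%. They were below 0 for 12 of 24 in siErm minus siCtrl cells, against 57.3%. The smallest p in siPea3 minus siCtrl cells was that of Ngef, at -0.93 (SE 0.24, adjusted p = 0.195 by limma). Its siPea3 arrays all lay below its siCtrl arrays, as did those of 12.4% of all probes. Nck2, an adaptor recruited by Eph receptors and ephrin-B proteins, was at -0.99 (SE 0.37, adjusted p = 0.311) and the GTPase Rac1 at -0.67 (SE 0.27, adjusted p = 0.332) in that comparison, both with overlapping arrays.

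The probes whose profile over the 12 arrays was most like that of a member were sought among 5806 probes with 1 symbol detected on all arrays, by Pearson's r of log2 signal less the median of the array. For Efnb1 they were Sox2 (r = 0.955), Eif2ak4 (0.953) and Arsj (0.922). For Efna1 they were Pkn2 (0.938), Ptpa (0.925) and Nolc1 (0.895), and for Ephb4 they were Hps6 (0.944), Rnf126 (0.943) and Myo9b (0.926). For Epha2 probe 714993 they were Nipa2 (0.939), Rab11a (0.914) and Atg10 (0.911). These correlations describe 12 arrays that share 4 groups, and the 3 highest of so many probes are high by selection.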

How the data were processed

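Per the file headers, the deposited intensities are assay normalized signals, and their scale is linear. A deposited ratio, the coefficient of variation, accompanies each of them, and its inverse served as signal over noise. Per the labels, total RNA was amplified by reverse transcription and in vitro transcription and labelled with digoxigenin. Which software, background correction and scaling were used is not stated in the labels or headers. The series table held 392662 values equal to those of the single arrays, and its 3482 blanks were failed measurements.

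Deposited signals were used without rescaling, as log2. Failed measurements were left out, and a probe was tested if detected (signal-to-noise ratio of at least 3) on at least 2 of the 12 arrays and measured in every group. Of the 16724 tested probes, 9182 had 1 symbol in the annotation supplied for the array. Groups were taken from the sample titles and compared in 6 pairs by limma (version 3.58.1, R 4.3.3), whose lmFit and eBayes were given a coefficient for each group and no covariates over the 12 arrays. Benjamini-Hochberg adjustment ran over all tested probes, and calls required an adjusted p below 0.05. Log2 changes carry standard errors and signals carry standard deviations, and the number of arrays limits the precision. The test was also tried on simulated data with independent noise and the same spread of a probe in every group. Shared array effects, such as the low signal of siPea3 array 2, were not simulated, so that trial does not bear on them. Plots used matplotlib 3.10.9 (Python 3.11.15).

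The members, the marker and pathway lists and the settings were chosen with earlier results of these data known. Every member probe is named, as are the 3 probes most like each member detected on all arrays. Other family genes are described where called or detected on at least 6 arrays. Pathway genes are described where called or among the 3 smallest p of siPea3 minus siCtrl cells, and the smallest p of the other comparisons are not listed. Psen2 and the pathway genes named only for their sign or detection were added after their values were seen. Arrays with the same replicate number in the titles were checked for shared deviations from their group means. The correlation was 0.275, 0.312 and 0.225 between siCtrl and siErm arrays and 0.115, 0.321 and 0.164 between siCtrl and siPea3 arrays, all over 0.1, so numbers were taken to pair these groups. It was -0.0419 to 0.08 between siErm and siPea3 arrays. Untransfected cells have 2 numbers only (-0.0293 to 0.127). Arrays of different numbers gave -0.305 to 0.319 over 38 pairs, of which 4 were over 0.1. The highest, 0.319, was between siCtrl array 3 and siPea3 array 4, above the 0.164 of siCtrl array 3 with siPea3 array 3. The pairing of siCtrl with siPea3 arrays is therefore uncertain. Alternatives were quantile normalization, scaling over the 9160 probes detected on all arrays, no filter on detection, only the groups compared, the replicate number as a block, and leaving out each array.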

Additional observations from a re-analysis of the deposited data

How the results depend on the processing

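The number of member probes called against untransfected cells went from 1 to 0 for both siCtrl and siErm cells with no filter on detection, with only the groups compared and with the replicate block. When single arrays were left out it was 0 to 0 for siCtrl, 0 to 1 for siErm and 1 to 2 for siPea3 cells, and it was 0 under every alternative between transfected groups. The pairing behind the replicate block is uncertain for siCtrl and siPea3 arrays. It is weaker still for siErm with siPea3 arrays (correlations of -0.0419 to 0.08) and for untransfected with transfected arrays (-0.0293 to 0.127). Array 4 of siPea3 has no same-numbered partner, so with the block it does not enter the siPea3 changes. With the block, Efnb1 was at -0.63 (adjusted p = 0.445 by limma) and Ephb4 at -0.96 (adjusted p = 0.377) in siPea3 minus siCtrl cells. The block changed no other call of a member than those of Efnb1 in siCtrl and siErm minus untransfected cells.

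Over all tested probes, the calls against untransfected cells went from 171 (siCtrl), 131 (siErm) and 1065 (siPea3) to 289, 206 and 1451 after quantile normalization, 272, 212 and 1496 with scaling over detected probes, 110, 83 and 480 with no filter, 0 (1445 at an unadjusted p under 0.05), 16 and 140 with only the groups compared and 100, 70 and 568 with the block. With 1 array left out they were 82 to 336, 61 to 297 and 313 to 1163. Those of siPea3 minus siCtrl cells went from 6 to 22, 35, 5, 0 and 0, or 0 to 9 with 1 array left out, and those of siPea3 minus siErm cells from 1 to 13, 5, 1, 0 and 0, or 0 to 2. Of the siPea3 calls against untransfected cells, 638 of 1065 were lower, and 524 of 1451 and 555 of 1496 under both other scalings.

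Estimates that were not called changed sign in places. Against untransfected cells, leaving out 1 array gave -0.098 to 0.60 for Ephb4 in siCtrl cells, -0.57 to 0.15 for Ephb4, -1.26 to 0.030 for Epha2 probe 714993 and -0.24 to 0.57 for Ephb3 in siErm cells, and -0.53 to 0.21 for Ephb3 and -0.67 to 1.32 for Efna5 in siPea3 cells. The block gave 0.041 for Ephb4 in siErm cells and 0.30 for Ephb3 in siPea3 cells, and scaling over detected probes gave 0.14 for the latter. In siErm minus siCtrl cells the ranges were -0.19 to 0.14 for Efnb1, -0.35 to 0.21 for Efna4, -0.22 to 0.36 for Efna1 and -0.81 to 2.72 for Epha2 probe 368655. In siPea3 minus siCtrl cells they were -1.54 to 1.99 for that probe and -0.029 to 0.23 for probe 714993. In siPea3 minus siErm cells they were -0.75 to 0.054 for Ephb3 and -1.53 to 0.21 for probe 368655, and probe 714993 was at 0.029 after quantile normalization and 0.077 with scaling over detected probes. The cause of these changes was not tested. Ephb3, near the limit of detection, and the groups of 2 and 3 arrays limit what could be called.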

Other observations

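Array number 2 was the extreme of its group for 2 member probes, a pattern seen in the values and not tested. The Efnb1 signal was highest on array 2 in all 4 groups (103.5, 31.51, 35.32 and 19.04), as were those of 425 of 16364 probes (2.6%). The signal of Epha2 probe 368655 was lowest on array 2 in all 4 groups (69.07, 0.5, 11.06 and 2.87), as were those of 439 probes (2.68%).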
